A study of Mus musculus with 11 samples.

Results

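The 38 genes described here carry out cell division, and they were taken by symbol as a fixed list of replication and mitosis genes. All 38 were found among the 24718 genes of the deposited table, and all 38 passed the low-count filter that left 17838 genes for testing. Bulk RNA-seq was done on mesenchymal stem and progenitor cells of mouse bone marrow (MSPCs), 8 weeks after treatment with the anthracycline doxorubicin, a DNA-damaging chemotherapy drug. All mice were females of the genotype Lepr-Cre;LSL-tdTomato+/-, in which Cre driven by the leptin receptor gene switches on a red reporter, and cells were sorted from digested marrow by that reporter. The 4 PBS mice had 4 intravenous injections of saline, the 3 DOX1X mice had 1 intravenous dose of 10 mg/kg, and the 4 DOX4X mice had 4 intravenous doses of 5 mg/kg, 1 week apart. The DOX4X mice were 8 to 10 weeks old, and the DOX1X mice are described as young adults without a number. The reporter marks any cell that has recombined, together with its progeny, and the gate that separated it from other marrow cells is not given in the sources used here.

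A cell that commits to division passes from G1 into S phase when E2F factors switch on the enzymes of DNA synthesis, and it then builds the spindle and separates its chromosomes in mitosis. Many genes of this programme are low in resting cells, so their RNA in a bulk sample can reflect the number of dividing cells. Most leptin receptor stromal cells of adult marrow are resting, whereas blood cell precursors in the same marrow divide rapidly. In bulk RNA, fewer cells of a type and less RNA per cell cannot be told apart.

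Sequence elements next to the start sites of these genes are described as background, and their relation to the levels in these libraries was not tested. RefSeq promoter sequences (GRCm38.p6, 250 bases before to 50 bases after the start) matched 32 of the 38 by symbol. Searched on both strands, the CHR (TTTGAA or TTCGAA), an element known from late cell-cycle genes, was present in 18 of the 32, or 56.2%, against 19.4% of 27025 promoters. It was in 15 of the 19 matched genes that act from S phase to mitosis (78.9%) and in 3 of the 13 matched genes of the G1/S step (23.1%). A strict E2F match (TTTGGCGC, TTTCGCGC, TTTCCCGC or TTTGCCGC) was in 6 of the 32 (18.8%, against 2.32% of all promoters), and 5 of these 6 were G1/S genes. Cdk1 was the only one of the 19 matched mitotic genes with such a match. The CCAAT box was in 26 of the 32 (81.2%, against 37.9%). Birc5, Ccne1, E2f1, Nusap1 and Tyms held none of these elements. A GATA match (AGATAA or TGATAA), the element read by erythroid GATA factors, was in 2 of the 32 (6.25%, against 19%). Only letters were matched, so a match is not a bound site. Cdk1 and Kif11 below are examples of mitotic genes and Mcm6 of G1/S genes. Each is written 5′ to 3′ along the gene's own strand with CHR, E2F and CCAAT matches in capitals (matches on the other strand read in reverse complement). Cdk1 is at chr10:69352863-69353162 (minus strand), Kif11 at chr19:37376132-37376431 (plus strand) and Mcm6 at chr1:128359656-128359955 (minus strand), all in GRCm38.p6.
Cdk1: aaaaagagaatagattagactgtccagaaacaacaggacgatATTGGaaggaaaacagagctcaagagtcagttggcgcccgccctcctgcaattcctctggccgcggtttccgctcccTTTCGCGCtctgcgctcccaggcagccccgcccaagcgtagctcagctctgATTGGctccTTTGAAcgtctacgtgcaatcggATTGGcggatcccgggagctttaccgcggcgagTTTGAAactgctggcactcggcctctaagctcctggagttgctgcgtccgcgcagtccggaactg
Kif11: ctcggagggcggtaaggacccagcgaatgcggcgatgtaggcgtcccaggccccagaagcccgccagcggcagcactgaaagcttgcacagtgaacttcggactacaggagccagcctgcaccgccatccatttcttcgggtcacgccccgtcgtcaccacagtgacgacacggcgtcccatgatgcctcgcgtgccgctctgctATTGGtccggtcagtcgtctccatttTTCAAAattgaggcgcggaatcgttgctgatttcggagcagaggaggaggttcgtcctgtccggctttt
Mcm6: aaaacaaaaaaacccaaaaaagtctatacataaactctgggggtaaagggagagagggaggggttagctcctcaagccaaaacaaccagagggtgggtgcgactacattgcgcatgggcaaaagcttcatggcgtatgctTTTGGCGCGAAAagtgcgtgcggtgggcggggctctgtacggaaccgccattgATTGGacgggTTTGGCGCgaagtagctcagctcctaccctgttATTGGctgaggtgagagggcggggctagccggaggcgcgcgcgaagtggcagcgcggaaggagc
The Cdk1 stretch holds CHR, E2F and CCAAT matches, the Kif11 stretch holds a CHR and a CCAAT match, and the Mcm6 stretch holds E2F matches, some of them overlapping, and CCAAT matches.

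Libraries held 29540422 to 42784036 counts, and the labels number the mice of a group as biological replicates. For 1 library, kept as PBS 4, the labels conflict: treatment and library name are those of a control, but the title starts with DOX. The column names hold run codes, which are read here as flow cells, a term the labels do not use. By these codes, every PBS library shared flow cell 1 with DOX1X 1 and 2. Every DOX4X library shared flow cell 2 with DOX1X 3. The last code of each column name changed together with the run code, so the term flow cell covers both here. Flow cell and treatment therefore cannot be told apart for DOX4X against PBS except through DOX1X. The stromal label held: the 15 stromal identity genes summed to 74106 CPM ± 4872 for the PBS mice (SD, n = 4), to 73002 ± 8306 for DOX1X (n = 3) and to 69665 ± 5664 for DOX4X (n = 4). The 38 division genes together took 0.0576% to 0.205% of each library. Markers of blood cells were present in every library, and their values stand beside the results they move with.

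Within each group the summed level of the division genes spanned a wider range than the difference between any pair of group means. Summed over the 38 genes, the level was 1008, 1393, 854 and 576 CPM (counts relative to library size, scaled by TMM) in PBS 1 to 4, 1575, 1675 and 739.6 CPM in DOX1X 1 to 3, and 2049, 1710.3, 879 and 1194 CPM in DOX4X 1 to 4. The PBS mean was 958 CPM ± 341 (SD, n = 4), the DOX1X mean 1329.9 ± 514 (n = 3) and the DOX4X mean 1458 ± 522 (n = 4). PBS 4 was the lowest library and DOX4X 1 the highest, 3.56-fold apart, and the groups overlapped: DOX1X 3 lay below PBS 1, 2 and 3, and DOX4X 3 below PBS 1 and 2. DOX4X 1 held the highest value of 37 genes. The exception was Nusap1, a spindle microtubule protein, which was highest in DOX4X 2. PBS 4 held the lowest value of 33 genes, PBS 3 that of Cdk1, Ccne2, Pcna and Tyms, and DOX4X 3 that of E2f1. The highest library exceeded the lowest by 1.52-fold for Pcna and by 7.95-fold for Bub1b (a spindle checkpoint kinase), with a median of 4.50 over the 38 genes. The smallest raw count of any division gene in any library was 61 (Cenpf).

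**Figure D1:**
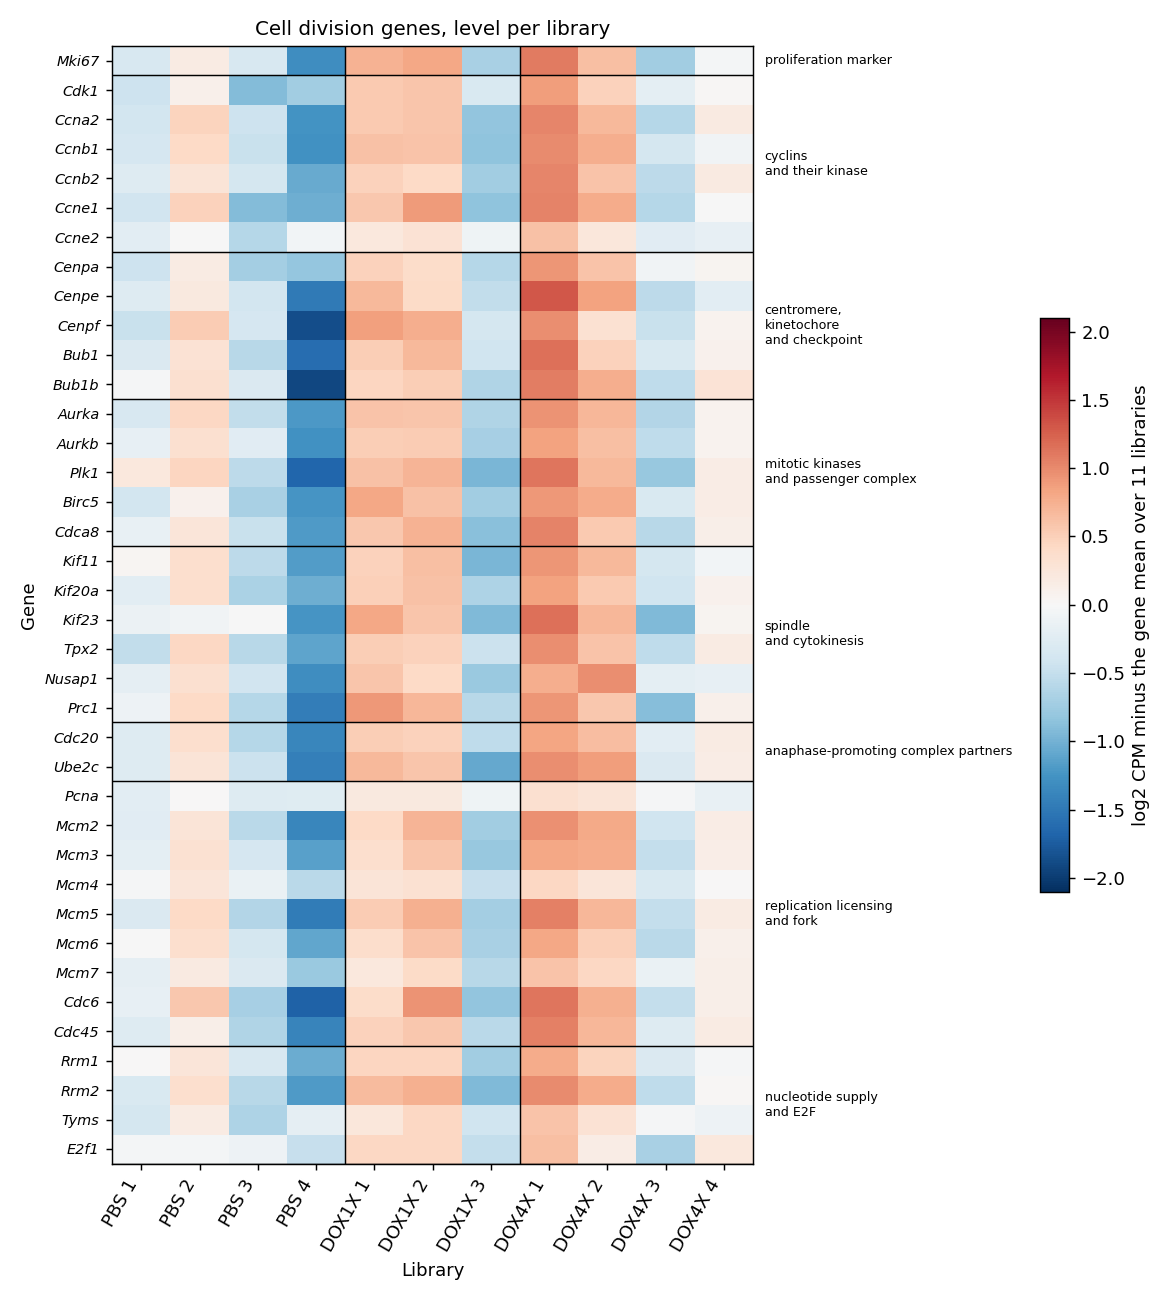
Level of each division gene (rows, ordered by role) in each of the 11 libraries (columns), as log2 CPM minus the gene's mean over libraries. DOX4X 1 is the highest column for 37 genes and PBS 4 the lowest for 33, and the columns differ within each group.

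Mki67, the nuclear protein used to stain dividing cells, was at 19.6, 28.0, 19.7 and 10.1 CPM in PBS, 41.2, 43.6 and 15.6 in DOX1X, and 53.4, 38.6, 15.1 and 24.1 in DOX4X. DOX1X 3, DOX4X 3 and DOX4X 4 lay within the PBS range and the other 4 doxorubicin libraries lay above it.

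Among the cyclins and their kinase, Cdk1, the kinase that drives entry into mitosis, was at 13.6, 19.9, 9.77 and 11.1 CPM in PBS, 26.9, 27.5 and 14.7 in DOX1X, and 33.8, 25.7, 15.9 and 18.6 in DOX4X. Its partner Ccnb1 (cyclin B1) was at 22.0, 37.5, 20.3 and 11.6 CPM in PBS, 42.8, 42.2 and 15.6 in DOX1X, and 55.9, 47.3, 21.6 and 26.6 in DOX4X. Both were low in DOX1X 3, DOX4X 3 and DOX4X 4, which overlapped PBS. Ccne1 (cyclin E1, which starts S phase) was at 10.6, 19.6, 7.44 and 6.87 CPM in PBS, 20.6, 25.9 and 7.73 in DOX1X, and 28.6, 23.9, 9.20 and 13.9 in DOX4X. Ccne2, the other cyclin E, varied least of the 6 genes of this role, 2.34-fold from its lowest to its highest library, against 4.16-fold for Ccne1. Ccna2 (cyclin A2, of S phase and G2) and Ccnb2 (cyclin B2) varied 4.87-fold and 4.21-fold.

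At the centromere, Cenpa, the histone variant that marks where the kinetochore forms, was at 18.2, 27.8, 15.05 and 14.04 CPM in PBS, 34.3, 32.2 and 16.3 in DOX1X, and 46.8, 37.4, 23.5 and 25.6 in DOX4X. All 4 DOX4X libraries lay above PBS 1, 3 and 4, but DOX4X 3 and 4 lay below PBS 2. The kinetochore genes Cenpe (a motor) and Cenpf, and the checkpoint kinases Bub1 and Bub1b, varied 6.71-fold to 7.95-fold between libraries. Aurkb, the kinase of the chromosomal passenger complex, was at 14.004, 19.9, 13.4 and 6.54 CPM in PBS, 22.5, 22.8 and 9.70 in DOX1X, and 28.5, 24.4, 10.98 and 16.6 in DOX4X. Its partners Birc5 (survivin) and Cdca8 (borealin) varied 4.43-fold and 4.67-fold, and the centrosome kinase Aurka 4.42-fold. Plk1, a kinase of mitotic entry and exit, varied 6.91-fold.

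Of the spindle and cytokinesis genes, Kif11, the motor that pushes spindle poles apart, was at 25.3, 31.2, 16.7 and 10.8 CPM in PBS, 34.1, 37.96 and 12.6 in DOX1X, and 46.6, 39.1, 19.0 and 23.6 in DOX4X. DOX1X 3 was lower than 3 of the 4 PBS libraries. The cytokinesis motors Kif20a and Kif23, the spindle assembly factor Tpx2, Nusap1 and the midzone bundler Prc1 varied 3.65-fold to 5.27-fold. Cdc20, which activates the anaphase-promoting complex, was at 15.9, 24.3, 12.6 and 7.37 CPM in PBS, 27.2, 26.7 and 13.2 in DOX1X, and 33.9, 29.8, 16.4 and 21.6 in DOX4X, and its groups overlapped. Ube2c, the ubiquitin-conjugating enzyme of that complex, varied 5.32-fold.

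Among the replication genes, Pcna, the sliding clamp of the polymerases, was at 55.0, 64.3, 53.3 and 53.8 CPM in PBS, 73.6, 74.2 and 60.01 in DOX1X, and 81.0, 77.5, 62.9 and 57.8 in DOX4X. It was the steadiest of the 38, and DOX1X 3 and DOX4X 3 and 4 lay between PBS 1 and PBS 2. Mcm5, a subunit of the MCM helicase that unwinds the fork, was at 37.3, 61.5, 30.1 and 16.6 CPM in PBS, 66.5, 77.1 and 28.2 in DOX1X, and 95.9, 74.8, 32.5 and 51.7 in DOX4X. The subunits of this 1 complex did not span the same range: Mcm4 varied 2.01-fold and Mcm7 2.60-fold, whereas Mcm2 varied 5.03-fold, Mcm3 3.84-fold, Mcm5 5.79-fold and Mcm6 3.73-fold. Cdc6, which loads the helicase, and Cdc45, which activates it, varied 7.09-fold and 5.47-fold. Rrm2, the S phase subunit of ribonucleotide reductase, was at 49.8, 79.4, 41.3 and 27.1 CPM in PBS, 97.8, 104 and 32.6 in DOX1X, and 124, 106, 42.7 and 63.1 in DOX4X. Rrm1, its partner subunit, varied 3.54-fold, and Tyms, which makes thymidylate, varied 2.38-fold. E2f1, the transcription factor of the G1/S step, was at 8.68, 8.74, 8.32 and 6.37 CPM in PBS, 12.0, 12.1 and 6.33 in DOX1X, and 13.8, 9.95, 5.57 and 10.5 in DOX4X. E2f1 varied 2.48-fold, so that Tyms, E2f1 and Ccne2 varied less than the median gene of the 38.

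**Figure D2:**
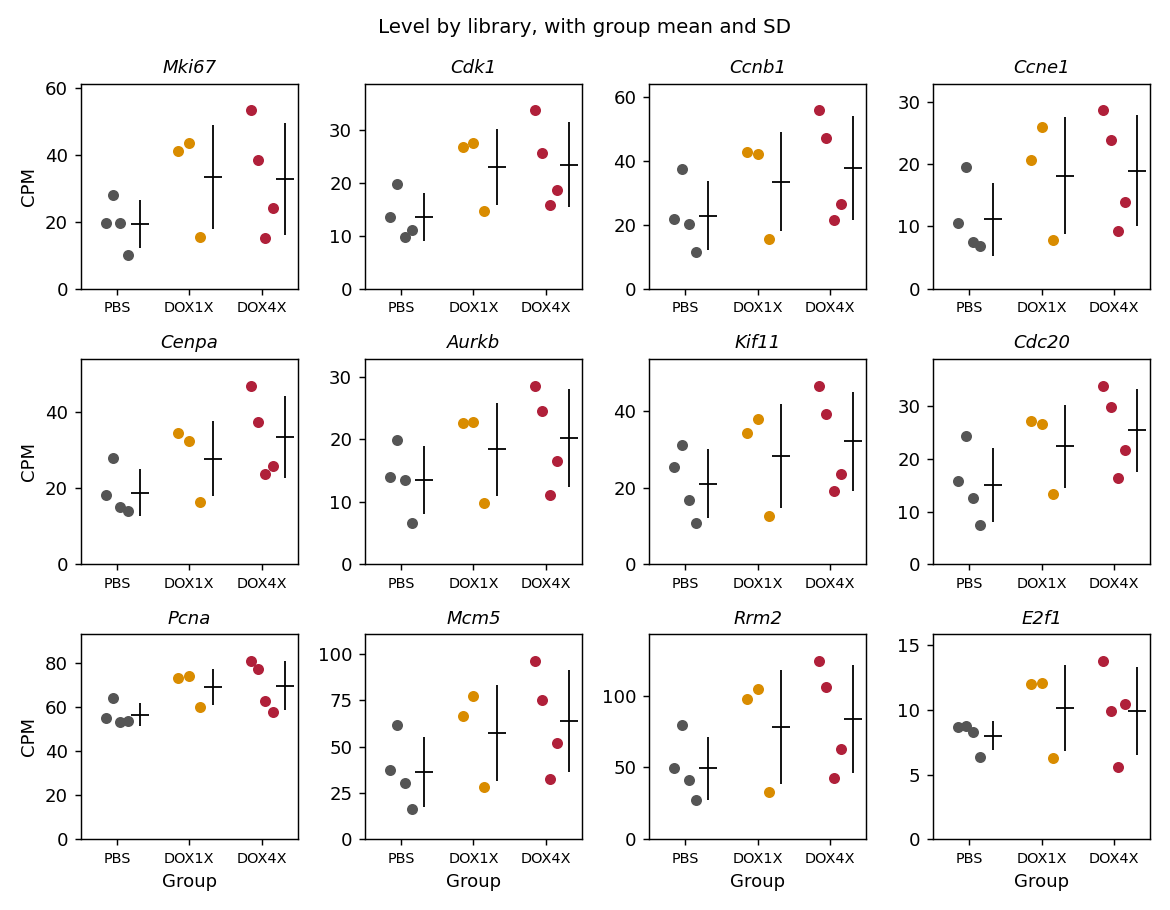
CPM (linear axis from 0) of 12 division genes by group, 1 point per library, with the group mean (bar) and SD (line) to the right of the points. For each gene the 3 groups overlap, and DOX1X 3 and DOX4X 3 sit within or below the PBS range.

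Levels of different genes were compared roughly, per kilobase of all annotated exons of a gene merged. On this measure the mean over the 11 libraries was highest for Pcna (27.0 CPM per kb), Mcm4 (25.8), Rrm2 (25.2) and Mcm6 (23.3). It was lowest for Cenpf (0.544 CPM per kb), Cenpe (1.12) and Kif23 (1.37), and stood at 2.79 for Mki67. Replication genes held the top of this order and long kinetochore and motor genes the bottom. Merged exons can exceed the length of the main transcript, so the order also depends on the annotation. The 23 genes that act from S phase to mitosis summed to 343, 508, 291 and 173 CPM in PBS, 619, 611 and 253 in DOX1X, and 806, 651, 300.1 and 432 in DOX4X. The 15 G1/S genes summed to 665, 885, 563 and 403 CPM in PBS, 956, 1064 and 486 in DOX1X, and 1243, 1059, 579 and 763 in DOX4X. The ratio of the mitotic sum to the G1/S sum was 0.43 in PBS 4 and 0.65 in DOX4X 1, the lowest and the highest of the 11 libraries.

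Whether 4 doses of doxorubicin left more division transcripts in the sorted cells was asked by comparing DOX4X with PBS. No division gene passed edgeR's quasi-likelihood test at an adjusted p of 0.05 (0 of 38), where 0.146% of all genes were called in either direction and 0% as higher. All 38 log2 fold changes were above 0, as were 52.2% of all genes, and their median was 0.72 against 0.01 over all genes. They ran from 0.21 (Mcm4) to 0.94 (Cdc45), with a median of 0.51 for the G1/S genes and 0.72 for the mitotic genes. DOX4X 1 was highest for 37 genes and PBS 4 lowest for 33, so the 38 signs are not independent, here or in the other comparisons. At an unadjusted p under 0.05, 5 of the 38 were higher (6% of all genes), and DESeq2 and limma-voom also called 0, with 11 (6.62% of all genes higher by DESeq2) and 8 (7.1% by limma-voom) at that unadjusted threshold. None of the 38 had all DOX4X libraries above all PBS libraries, as 3.17% of all genes did. Cenpa had the smallest p, with a difference of 0.83 (SE 0.30, edgeR adjusted p = 0.256). It was followed by Cdk1 at 0.79 (SE 0.29, edgeR adjusted p = 0.264) and Cdc45 at 0.94 (SE 0.37, edgeR adjusted p = 0.286). Mki67 stood at 0.76 (SE 0.42, edgeR adjusted p = 0.456), and Mcm4 had the p nearest 1, at 0.21 (SE 0.22, edgeR adjusted p = 0.733).

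Beside these values, all 19 erythroid markers tested (genes of red cell precursors, such as Klf1 and the globins) were above 0 in the same comparison, with a median log2 difference of 0.97. Their summed level was 374 CPM ± 151 (SD, n = 4) in PBS and 738 ± 274 (n = 4) in DOX4X. B lineage markers had a median of 1.14 (19 of 19 above 0), T and NK cell markers of 1.11 (19 of 19), endothelial markers of 0.82 (20 of 21), neutrophil markers of 0.66 (16 of 19) and monocyte markers of 0.27 (10 of 15). None of the marker genes passed the test. Haematopoietic progenitor markers summed to 424 CPM ± 33 (SD, n = 4) in PBS and 417 ± 40 (n = 4) in DOX4X. Their mean centred log2 level was -0.17 in PBS and 0.17 in DOX4X. Pan-leukocyte markers summed to 186 CPM ± 53 in PBS and 305 ± 114 in DOX4X, and megakaryocyte markers to 308 ± 302 and 302 ± 187. With the erythroid marker score in the fit, the median of the 38 division genes was -0.37 for DOX4X against PBS, and with a score of 72 markers of 4 blood lineages it was -0.21, with 0 genes called in both fits. Without PBS 4, the library with conflicting labels, 0 were called (0.0395% of all genes as higher) and 2 were higher at the unadjusted threshold (6.41%). That number depended on single libraries in both directions. It was 26 without PBS 2 (6.7% of all genes), 25 without DOX4X 3 (6.71%) and 0 without DOX4X 1 (4.84%). Without DOX4X 1 the median was 0.45, and without both PBS 4 and DOX4X 1 it was 0.25 with 37 genes above 0. With flow cell as a term it was 1.92, with 0 called and 35 at the unadjusted threshold (5.89% of all genes), an estimate that rests on how the 3 DOX1X libraries divide between the flow cells.

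After a single dose the picture was alike in direction and also short of the test, and since DOX1X and DOX4X were compared with the same PBS libraries the values of both are not independent. Of the 38 genes, 0 were called in DOX1X against PBS (edgeR, 0.00561% of all genes called), all 38 log2 fold changes were above 0 (51.2% of all genes), and the median was 0.56 (range 0.17 to 0.85). At an unadjusted p under 0.05, 2 were higher (3.42% of all genes), and DESeq2 and limma-voom called 0, with 3 (3.59% of all genes higher by DESeq2) and 4 (5.12% by limma-voom) at that threshold. No division gene separated the groups (3.18% of all genes did so upwards). Cdk1 stood at 0.76 (SE 0.31, edgeR adjusted p = 0.654), Pcna at 0.29 (SE 0.13, edgeR adjusted p = 0.681) and Birc5 at 0.85 (SE 0.39, edgeR adjusted p = 0.69). Mki67 stood at 0.79 (SE 0.45, edgeR adjusted p = 0.736) and Mcm4 at 0.17 (SE 0.23, edgeR adjusted p = 0.88). Beside them, the 19 erythroid markers had a median of 0.75 (19 above 0) and the B lineage markers of 0.75 (19 of 19). The median was 1.58 for neutrophil markers (19 of 19 above 0), 1.13 for T and NK cell markers (19 of 19), 1.14 for megakaryocyte markers (8 of 8), 0.06 for monocyte markers (10 of 15) and -0.58 for endothelial markers (1 of 21). Haematopoietic progenitor markers summed to 414 CPM ± 42 (SD, n = 3) in DOX1X, against 424 in PBS. Their mean centred log2 level was -0.0094 in DOX1X and -0.17 in PBS. Pan-leukocyte markers summed to 276 CPM ± 121 in DOX1X, against 186 in PBS. With the erythroid score in the fit the division genes' median was -0.30, and with the blood-cell score -0.40. Within flow cell 1, which leaves out DOX1X 3, it was 0.85, with 0 called and 25 higher at the unadjusted threshold (4.28% of all genes in that fit). Without DOX1X 2 it was 0.33 and without PBS 2 it was 0.86. Without PBS 4, 0 division genes were called (0.00564% of all genes as higher) and 0 were higher at the unadjusted threshold (5.28%). At that threshold 18 were higher without DOX1X 3 (4.38% of all genes), 13 without PBS 2 (3.29%) and 0 without DOX1X 2 (2.98%).

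The 2 schedules, which differ in dose, number of doses and total drug, gave division gene levels within the spread of the libraries. Between DOX4X and DOX1X, 0 of 38 were called (edgeR, 0.00561% of all genes), 0 passed the unadjusted threshold (2.23% of all genes as higher), and DESeq2 and limma-voom also called 0 and had 0 at that threshold (2.53% and 3.74% of all genes higher). No division gene separated these groups (3.19% of all genes did so upwards). The median was 0.14, with 34 genes above 0 (49.7% of all genes), and the range was -0.19 (Cenpf) to 0.32 (Bub1b). The log2 differences were 0.27 for Cenpa, 0.20 for Mcm7, 0.27 for Ccnb2 and 0.0035 for Ccne2, each with an edgeR adjusted p of 1. The sign of the median rested on single libraries, since it was -0.17 without DOX1X 3 and -0.10 without DOX4X 1. Flow cell is largely confounded with this comparison, since all DOX4X libraries but only DOX1X 3 of DOX1X were on flow cell 2. With flow cell as a term the median was larger, with 0 called and 6 higher at the unadjusted threshold (2.85% of all genes). Within flow cell 2, where DOX1X 3 alone stands for DOX1X, the median was 1.07.

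**Figure D3:**
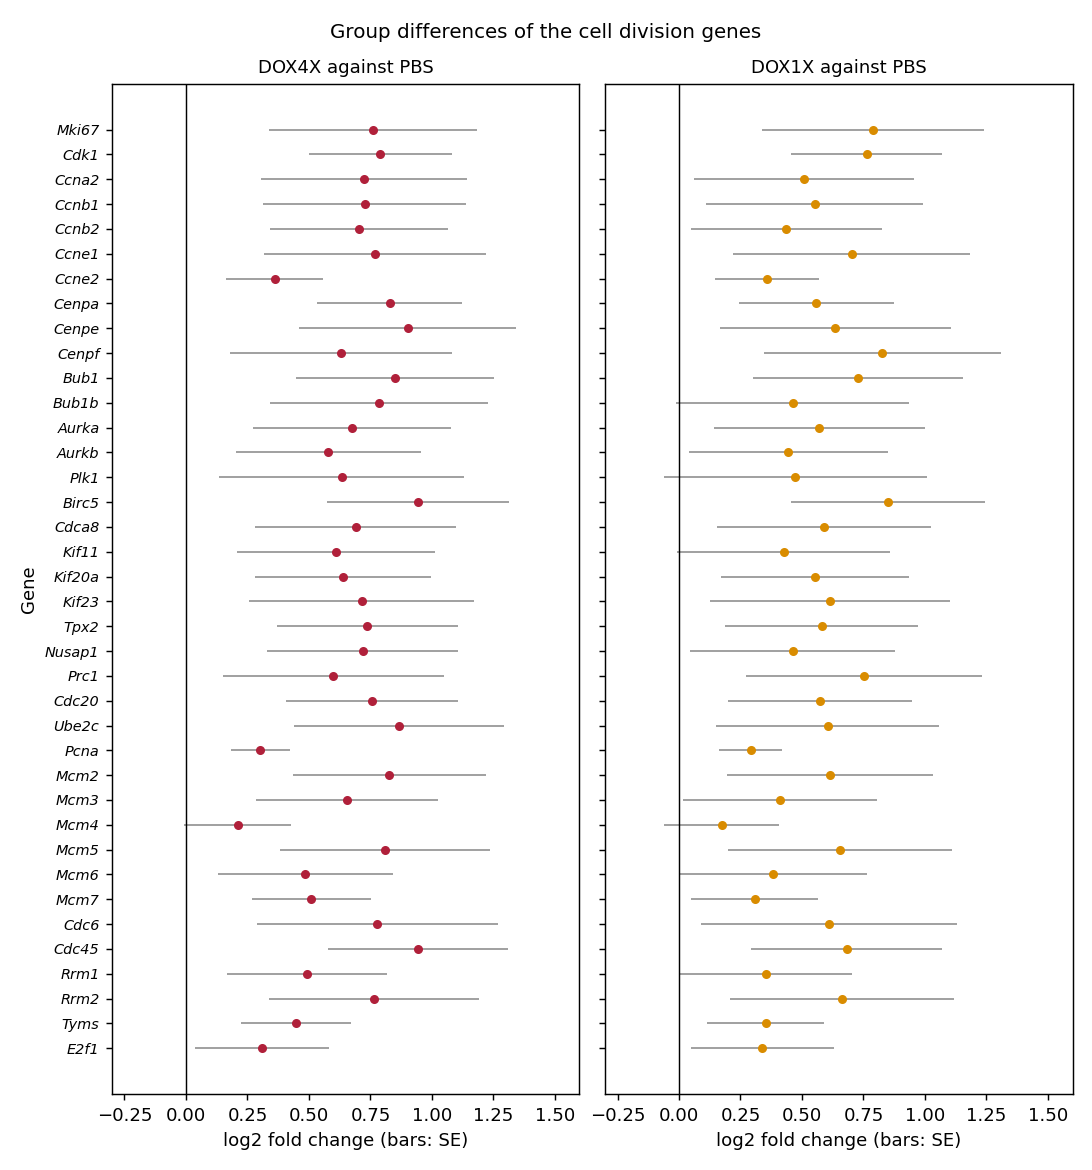
Log2 fold change of each division gene for DOX4X (left) and DOX1X (right) against PBS, with the SE as a bar and a line at 0. In both comparisons all 38 points lie above 0 with wide bars, and none of them passed the adjusted test.

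Inside the groups, the division genes varied with the levels of erythroid, haematopoietic progenitor and pan-leukocyte markers, and which of these they followed most closely was not tested. The erythroid score, the mean centred log2 CPM of 19 red cell precursor genes (none of which is a division gene), was -0.33, -0.28, -0.56 and -1.41 in PBS 1 to 4, 0.75, 0.74 and -0.76 in DOX1X 1 to 3, and 1.16, 0.81, -0.35 and 0.23 in DOX4X 1 to 4. The counts of shared places that follow rank all 11 libraries together, so differences between the groups enter them too. Ranked by the summed level of the division genes and by the erythroid score, 7 of the 11 libraries held the same place. PBS 4 and DOX1X 3 were the lowest 2 in both. The same count was 6 for the pan-leukocyte score and 5 for the haematopoietic progenitor score, on which PBS 4 and DOX1X 3 were also the lowest 2. It was 4 for the monocyte score, 2 for the blood-cell score of 72 markers, 1 each for the B lineage, neutrophil, T and NK cell and endothelial scores, and 0 for the megakaryocyte and stromal identity scores. Klf1, the master factor of red cell genes, was at 17.0, 29.9, 8.87 and 5.34 CPM in PBS, 25.0, 39.4 and 10.9 in DOX1X, and 43.3, 39.1, 12.2 and 25.3 in DOX4X. Its order of libraries within each group was that of Mcm5, with DOX4X 1 first and PBS 4 last.

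**Figure D4:**
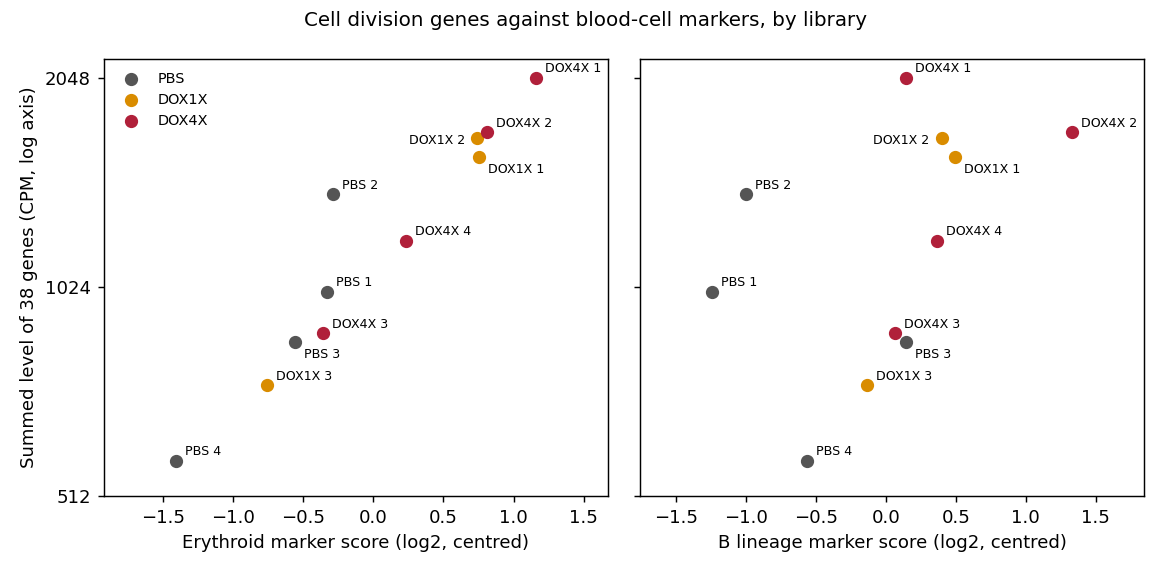
Summed level of the 38 division genes (CPM, log axis) against the erythroid score (left) and the B lineage score (right), 1 point per library, coloured by group. On the left the points run from PBS 4 at 576 CPM to DOX4X 1 at 2049 CPM, while on the right libraries of like division gene level are spread over the axis.

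A slope was fitted for every gene on each marker score beside the group means, so that it rests on differences between mice of the same group. On the erythroid score, 36 of the 38 division genes had a positive slope past the test (edgeR, adjusted over all genes), against 6.32% of all genes, and all 38 had an unadjusted p under 0.05 (15.3% of all genes). The median slope was 0.94 log2 units per log2 unit of score, against -0.0040 over all genes, and 29 of the 38 slopes lay between 0.8 and 1.2. Mki67 had a slope of 1.08 (SE 0.08, edgeR adjusted p = 0.000202), Kif11 of 1.01 (SE 0.10) and Aurkb of 0.95 (SE 0.09). Among the G1/S genes Mcm5 had a slope of 1.05 (SE 0.12), Rrm2 of 1.08 (SE 0.10), Ccne1 of 1.06 (SE 0.16) and E2f1 of 0.61 (SE 0.10). Ccnb1 stood at 1.02 (SE 0.11), Cdc20 at 0.82 (SE 0.12), Cenpa at 0.67 (SE 0.10) and Cdk1 at 0.61 (SE 0.12). Plk1 had the steepest slope, 1.28. The shallowest were Pcna at 0.22 (SE 0.06, edgeR adjusted p = 0.0484), Ccne2 at 0.28 (edgeR adjusted p = 0.162) and Tyms at 0.37 (edgeR adjusted p = 0.081), and the last 2 did not pass. Pcna's call was kept in 4 of 23 alternatives.

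On a haematopoietic progenitor score (10 genes) 35 of the 38 passed (5.32% of all genes as higher; median slope 1.40) and 37 reached an unadjusted p under 0.05 (14.5%). On a pan-leukocyte score 26 passed (3.4%; median slope 1.01) and 36 reached it (14.2%). On the blood-cell score of 72 markers 0 passed in edgeR (0.23% of all genes), with 37 at an unadjusted p under 0.05 (7.6%), a median slope of 0.95 and a smallest adjusted p of 0.0893. DESeq2 called 27 (2.49% of all genes as higher). On the B lineage score 0 passed (0.0392%) and 0 reached the unadjusted threshold (1.96%), with a median slope of 0.07. Likewise 0 passed on the neutrophil score (0.0112%), where 25 reached the unadjusted threshold (3.63%) and the median slope was 0.44. On the monocyte score 0 passed (0.00561%) and 33 reached that threshold (6.99%; median slope 1.01), and on the T and NK cell score 0 passed (0.0112%) and 31 reached it (7.41%; 1.00). On the megakaryocyte score 0 passed (0.336%) and 1 reached it (6.18%; 0.13), and on the endothelial score 0 passed (0.465%) and 0 reached it (3.91%; 0.34). On the stromal identity score 0 passed (0%) and 0 reached it (1.98%), where the median slope was -1.31 and 2 of the 38 were above 0. Stromal identity varied little among mice, so that slope is poorly determined. With the erythroid score and a score of neutrophil, monocyte and B lineage markers in the same fit, 35 division genes had a called erythroid slope (6.11% of all genes as higher; median 0.99). On the other score 0 division genes had a called slope, but so did 0 of all genes. There the division genes had 1 slope under the unadjusted threshold, whose share over all genes was not counted, and a median of -0.04. A score from the globin genes and Alas2 alone, which mark late red cell precursors, gave 0 called slopes (0.028% of all genes as higher) with 14 unadjusted (5.64%) and a median of 0.58, while the erythroid score without them gave 36 called (7.95%). Without PBS 4 alone, 35 of the 38 passed on the erythroid score (3.02% of all genes as higher). Without both PBS 4 and DOX4X 1, 28 of the 38 passed on that score (1.2%). Which cells held the division transcripts cannot be told from bulk libraries, and a cause of the shared variation was not tested.

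**Figure D5:**
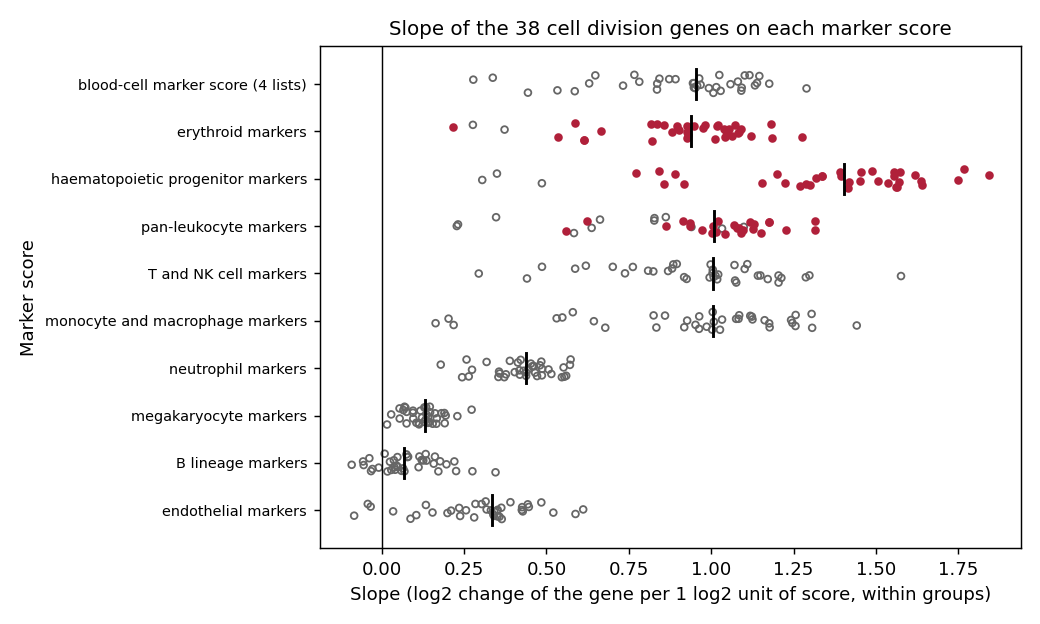
Slopes of the 38 division genes on each of 10 marker scores, in log2 units per log2 unit of score, fitted within groups. Filled points passed the test, open points did not, and black bars are medians, at 0.94 for the erythroid score and 0.07 for the B lineage score; the scores span different ranges, so slopes on different scores are not on 1 scale.

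Another 114 cell-cycle genes that are not among the 38 were all tested. For DOX4X against PBS 0 were called (edgeR; DESeq2 and limma-voom were not counted on this list), 109 were above 0 (52.2% of all genes), and 26 were higher (6%) and 1 lower (7.85%) at an unadjusted p under 0.05. The 52 further mitotic genes had a median log2 fold change of 0.67 (52 above 0), the 39 further replication genes of 0.49 (39 above 0), and the 23 genes of G1 entry and quiescence of 0.09 (18 above 0). Orc6, a subunit of the origin recognition complex, was at 17.8, 25.3, 20.2 and 22.4 CPM in PBS and 29.3, 27.4, 30.0 and 25.9 in DOX4X, groups that did not overlap, and the log2 difference was 0.40 (SE 0.11, edgeR adjusted p = 0.157). Kif14, Pola2 and Lin37 also separated the groups upwards, making 4 of 114, near the 3.17% of all genes that did so. Rfc4, of the clamp loader, stood at 0.73 (SE 0.20, edgeR adjusted p = 0.175) and Gmnn (geminin, the licensing inhibitor) at 0.86 (SE 0.27, edgeR adjusted p = 0.205). Rbl2, the pocket protein of resting cells, had the smallest p among the lower genes, at -0.20 (SE 0.09, edgeR adjusted p = 0.333). For DOX1X against PBS 0 were called and 107 were above 0 with a median of 0.42, and Cks2, a Cdk1 subunit, stood at 0.70 (SE 0.26, edgeR adjusted p = 0.615). On the erythroid score, 76 of the 114 passed, against 6.32% of all genes: 44 of the 52 mitotic genes (median slope 0.75), 25 of the 39 replication genes (0.51) and 7 of the 23 genes of G1 entry and quiescence (0.14).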

How the data were processed

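The authors deposited unnormalized whole-number counts, 1 per gene and library. The genome build GRCm39, the aligner STAR 2.7.9a and the counter featureCounts 2.0.1 are named in the submitters' processing notes, beside Trim Galore 0.6.6, SAMtools 1.17, FastQC 0.11.5 and MultiQC 1.7. Libraries came from poly(A) RNA by SMART-Seq v4 Plus, per the labels' protocols. Annotation, strand setting and handling of reads with several matches were not given in the sources used here, so near-identical copies such as Hba-a1 and Hba-a2 are uncertain as single genes.

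Genes were kept by filterByExpr of edgeR 4.0.16 (R 4.3.3), which left 17838 of 24718, and libraries were scaled with TMM. All 11 libraries were fitted with group means, and group differences were put to the two-sided quasi-likelihood test of edgeR, adjusted over all genes tested by Benjamini-Hochberg (threshold 0.05). The SE of a fold change was derived from its F statistic. Marker scores are the mean log2 CPM (prior count 2) of a list, centred, and slopes on a score were fitted beside group means. Alternatives used DESeq2 1.42.0 and limma 3.58.1 among others. The scripts were tested on simulated data. Library totals of 29540422 to 42784036 counts left the lowest division gene at 61 counts. The replicates' counts differed by more than sampling noise, so no library was a second sequencing of another in its group. That the p-values measure the spread between mice rests on the labels, since this check cannot show it. Within DOX1X the spread also holds a difference of flow cell.

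The 38 genes, the marker lists and the other cell-cycle genes were chosen with earlier results of these data known. The genes named are 12 chosen for their roles, the 3 with the smallest p and the one with p nearest 1 in each comparison, up to 3 other cell-cycle genes in each direction, and up to 3 markers of a list by level. Klf1, Kif14, Pola2, Lin37, the genes at either end of a range, and Orc6's separation of the groups were described after their values were seen, as were the erythroid score as covariate and its alternatives, the fits within a flow cell and the fit without PBS 4 and DOX4X 1. The erythroid slopes were planned as 1 of 10 single scores. Marco, Vsig4 and Ahsp, and marker genes under the low-count filter, were not analysed here. Exon lengths per gene and promoter sequences came from GRCm38, another build than that of the counts, and were matched by symbol.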

Additional observations from a re-analysis of the deposited data

Results flagged for a closer look

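Among 100 groups of 4 libraries examined, 3 held a library far from the other 3, and chance alone gives about 1 in 20. Kif23, a cytokinesis motor, was at 4.04 CPM in PBS 4, while the other 3 PBS libraries lay between 8.78 and 9.48 CPM. Pcna was at 64.3 CPM in PBS 2, while the other 3 PBS libraries lay between 53.3 and 55.0 CPM. The neutrophil marker score was -1.57 in PBS 1, while the highest PBS library was at -0.25.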

How the results depend on the processing

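In the 3 comparisons between groups 0 division genes were called under each of the 23 or 24 alternatives. The median log2 fold change for DOX4X against PBS was 1.92 with flow cell as a term, -0.21 with the blood-cell score and -0.37 with the erythroid score as covariates, and 0.45 to 1.01 with 1 library left out. For DOX1X against PBS it was -0.40 with the blood-cell score, -0.30 with the erythroid score, and 0.33 to 0.86 with 1 library left out. For DOX4X against DOX1X it was 1.06 with flow cell as a term, 1.07 within flow cell 2, -0.060 with the erythroid score, -0.10 without both PBS 4 and DOX4X 1, and -0.17 to 0.35 with 1 library left out. Only DOX1X 3 represents DOX1X on flow cell 2, so that value assumes that it varies like the other libraries.

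On the blood-cell score, called slopes numbered 11 with at least 5 CPM in 3 libraries (1.49% of all genes called as higher), 27 with DESeq2 (2.49%) and 24 without group means (2.07%). They numbered 26 with the pan-leukocyte score (3.4%), 9 without the B lineage list (0.768%), and 0 to 2 with 1 library left out (0% to 0.733%, and 2 without PBS 1). Without the erythroid list 0 were called (0.0336%) and 16 reached an unadjusted p under 0.05 (4.17% of all genes), against 37 in the main fit (7.6%). With flow cell as a term 0 were called (0.00561%) and 19 reached it (4.54%). Without DOX1X 3, 19 also reached it (4.49%). On the erythroid score, 34 to 36 were called with 1 library left out (2.54% to 6.18% of all genes as higher). The count was 37 with DESeq2 (10.2%) and 0 with the globin and Alas2 score (0.028%). The median slope there was 0.58 with that score, 0.83 without group means, and 0.89 to 1.03 with 1 library left out. The replicate numbers were not taken as pairing, since deviations of same-numbered libraries correlated at -0.12 to 0.35. With the replicate number as a block, DOX4X against PBS had 0 called and 33 of the 38 upward at an unadjusted p of 0.05 (7.97% of all genes). In the block fit 0 erythroid slopes were called (33 at an unadjusted p under 0.05, against 5.3% of all genes, and 0 of all genes called), the median was 0.80, and the median slope on the blood-cell score was 0.40. In that fit 37 of the 38 erythroid slopes were above 0, and it leaves few residual degrees of freedom.

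Single genes changed sign as follows. With the blood-cell score, DOX4X against PBS gave -0.25 for Mcm4 and -0.34 for Mki67, and DOX1X against PBS gave -0.14 for Birc5, -0.33 for Mcm4 and -0.37 for Mki67. With the erythroid score, DOX4X against PBS gave -0.035 for Cdc45, -0.38 for Mcm4 and -0.51 for Mki67, and DOX1X against PBS gave -0.050 for Birc5, -0.32 for Mcm4 and -0.24 for Mki67. Without both PBS 4 and DOX4X 1, Mcm4 stood at -0.042 for DOX4X against PBS. For DOX4X against DOX1X, Ccne2 stood at -0.00086 with no low-count filter, -0.040 with limma-voom, -0.0013 with the replicate block, -0.074 with the erythroid score, and -0.19 without PBS 4 and DOX4X 1. With 1 library left out it ran from -0.19 to 0.11, and was negative without DOX1X 3 (-0.10), DOX4X 1 (-0.19) or DOX4X 2 (-0.021). Ccnb2 was -0.029 without DOX1X 3, -0.0058 without DOX4X 1 and -0.0039 without both PBS 4 and DOX4X 1, with a range of -0.029 to 0.49 with 1 library left out, and Mcm7 was -0.040 without DOX1X 3 (up to 0.40 without another). The cause of these changes was not tested.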
